A study of Mus musculus with 8 samples.

Results

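Mitochondrial ribosomal protein genes were set against the genome-wide binding map of ZGLP1, a nuclear zinc finger protein related to GATA factors, which the study names a determinant of oogenic fate in the mouse. The genes were all protein-coding genes of the RefSeq annotation of GRCm38 (mm10) whose symbol begins with Mrpl or Mrps and a number, 78 of 21900 protein-coding genes. Of them, 49 carry Mrpl symbols (large subunit) and 29 carry Mrps symbols (small subunit). The readout was a single list of 32927 peak summits, each 1 base wide, with no height and no library name.

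The summits came from cells of C57BL/6 x DBA2 origin that overexpressed a V5-tagged Zglp1 switched on by doxycycline (Dox). An anti-V5 antibody was used for 5 ChIP libraries, each from 4000000 sorted cells, and 3 libraries were inputs. The ChIP groups were primordial germ cell-like cells (PGCLCs) at culture day 7 with Dox and retinoic acid (RA), at day 8 with Dox and RA, at day 7 with Dox alone and at day 8 with Dox alone, with treatment from culture day 3, and embryonic stem cells (ESCs) after 24 h of Dox and RA. Inputs were listed for PGCLCs at day 8 in both treatments and for ESCs. Each group had 1 library, all of them carried Dox and the tag, and cell identity could not be checked against markers, since the list holds positions only. No comparison between groups was made, the depth behind a summit is unknown, and no summit at a place means only that none was listed there.

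Mitochondria keep a small genome of their own and translate its messages, which encode core subunits of the respiratory chain, on a dedicated ribosome. The RNAs of this ribosome come from mitochondrial DNA, while its proteins are encoded by nuclear genes, made in the cytosol and imported. Oocytes are rich in mitochondria, and in humans inherited defects of several of these genes cause respiratory chain deficiency, with MRPS22 also linked to failure of the ovary.

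Every one of the 78 genes had a summit within 10 kb of an end of its annotated span, and 74 had one within 1 kb. The 10 kb share was 78 of 78 (exact 95% binomial interval 95.4 to 100%), where the share over all protein-coding genes was 66.6%. The 1 kb share was 94.9% (87.4 to 98.6%), against 52.9% over all protein-coding genes. The summit closest to an end lay at a median of 73.5 bases, against 658 bases over all protein-coding genes, and no gene of the family had its closest summit further than 1705 bases. The family is spread over 17 chromosomes, with most genes on chromosomes 11 (11 genes) and 17 (8 genes) and none on X or Y. Genes are not independent replicates, and the intervals cover counting error only.

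Most of the family had a summit close to a start of transcription. A table of promoter windows in RefSeq gives strand and start sites for 69 of the 78 genes and for 17492 protein-coding genes, and in it 69 of 69 members (94.8 to 100%) had a summit within 1 kb of a listed start, against 55.7% of all protein-coding genes with one. Within 250 bases the counts were 63 of 69 (91.3%) and 44.5% of all protein-coding genes. The median distance was 50 bases in the family and 349 bases over all these genes. The family's offsets ran between 266 bases upstream, at Mrps10, and 699 bases downstream, at Mrpl20, with 40 summits downstream of the start and 29 upstream. The downstream share was 58.0%, against 54.7% of all protein-coding genes with a summit within 1 kb of a listed start. The median offset was 18 bases downstream in both. The 9 genes that are not in the window table are Mrpl4, Mrpl13, Mrpl15, Mrpl19, Mrpl38, Mrpl54, Mrps28, Mrps34 and Mrps35.

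**Figure D1:**
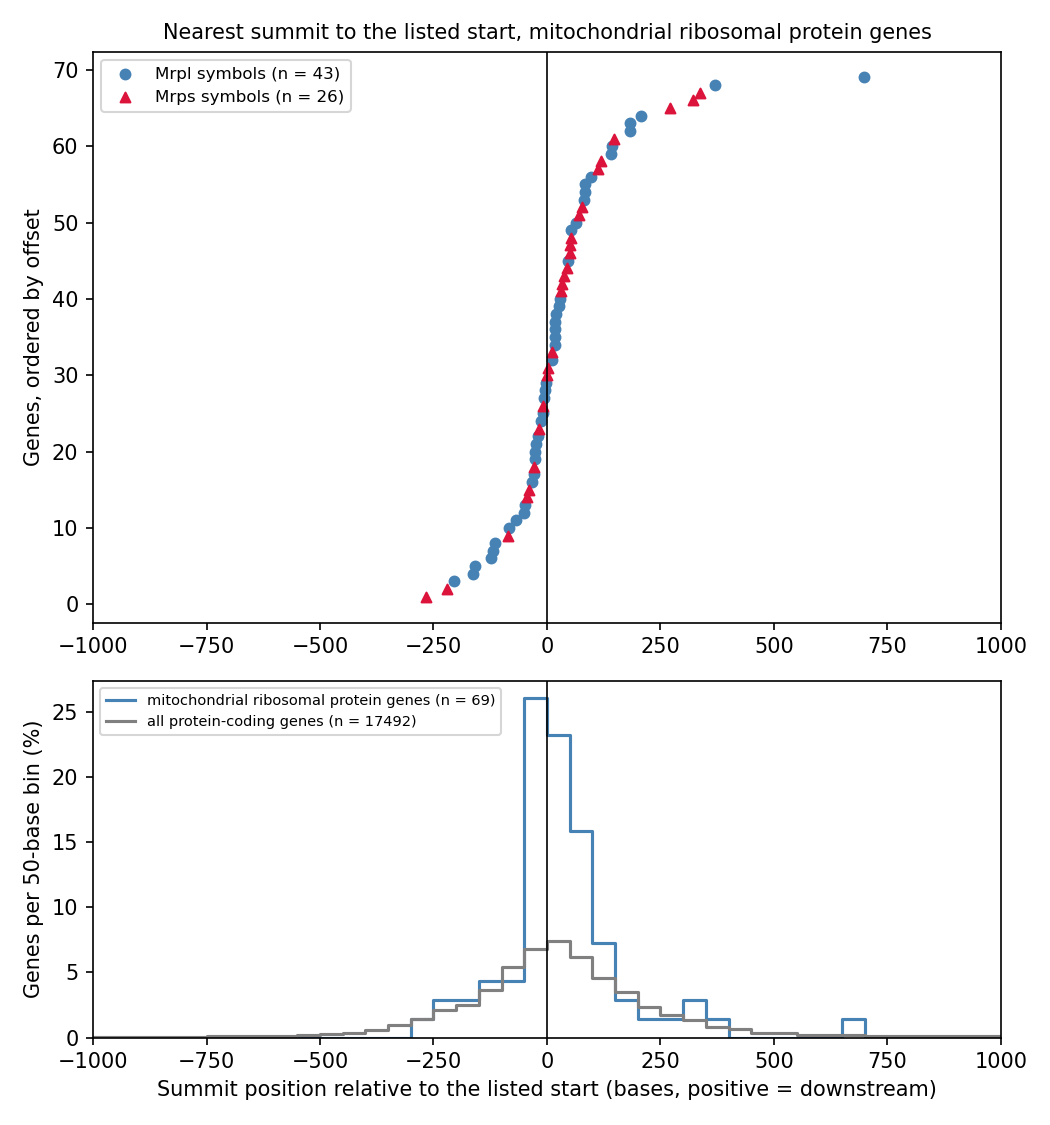
Offset in bases of the nearest summit from the nearest listed start, 1 point per gene for the 69 genes with a listed start (above), and the percentage of genes per 50-base bin in the family and in all 17492 protein-coding genes with a listed start (below). All 69 points lie between 266 bases upstream and 699 bases downstream, and the family's peak around the start is taller than that of all genes.

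The promoter windows below, taken from RefSeq on GRCm38.p6, show where summits fell. Each runs 5′ to 3′ on the gene's strand from 250 bases before the listed start through the 50 bases that begin at it, so that the start is base 251 of 300. Capitals mark letters that match ETS (CCGGAA), NRF1 (GCGCNTGCG), YY1 (AANATGGCG) and GATA motifs on either strand, the last read as AGATAA or AGATAG or TGATAA or TGATAG. The ETS family, NRF1 and YY1 are known regulators of nuclear genes for mitochondrial proteins, and the GATA motif was searched because of the zinc fingers of ZGLP1.

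The 3 windows with the closest summits inside them are those of Mrps17 (chr5:129715247-129715546, plus strand), Mrps14 (chr1:160194965-160195264, plus strand) and Mrpl45 (chr11:97315466-97315765, plus strand). Mrps17 and Mrps14 encode proteins of the small subunit. Mrpl45 encodes the large subunit protein that holds the ribosome to the inner membrane.
Mrps17: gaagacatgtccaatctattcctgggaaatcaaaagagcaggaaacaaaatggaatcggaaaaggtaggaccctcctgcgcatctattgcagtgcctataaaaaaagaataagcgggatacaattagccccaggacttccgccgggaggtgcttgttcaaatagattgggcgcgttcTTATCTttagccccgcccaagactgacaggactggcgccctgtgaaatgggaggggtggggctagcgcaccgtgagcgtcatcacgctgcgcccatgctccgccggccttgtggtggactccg
Mrps14: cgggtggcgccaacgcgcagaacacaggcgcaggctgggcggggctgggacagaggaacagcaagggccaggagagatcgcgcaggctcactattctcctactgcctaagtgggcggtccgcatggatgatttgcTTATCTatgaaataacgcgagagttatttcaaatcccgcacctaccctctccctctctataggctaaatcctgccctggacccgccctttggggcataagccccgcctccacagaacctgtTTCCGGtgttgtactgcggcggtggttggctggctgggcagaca
Mrpl45: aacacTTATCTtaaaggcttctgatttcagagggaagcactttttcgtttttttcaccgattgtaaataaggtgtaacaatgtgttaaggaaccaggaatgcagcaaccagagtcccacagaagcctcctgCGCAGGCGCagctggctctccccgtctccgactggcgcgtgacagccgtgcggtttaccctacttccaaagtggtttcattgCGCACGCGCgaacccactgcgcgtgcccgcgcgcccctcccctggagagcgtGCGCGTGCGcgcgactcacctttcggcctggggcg
The summit lay at base 252 of the Mrps17 window, 1 base past the start, at base 253 of the Mrps14 window and at base 248 of the Mrpl45 window. The Mrps14 window has an ETS match at bases 257 to 262, next to its summit. The Mrpl45 window has NRF1 matches at bases 132 to 140, 214 to 222 and 266 to 274. The GATA matches of these windows, at bases 178 to 183 in Mrps17, 136 to 141 in Mrps14 and 6 to 11 in Mrpl45, lie upstream of the summits.

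The 4 genes without a summit within 1 kb of an annotated end were Mrpl4, Mrpl18, Mrpl22 and Mrpl24. Mrpl4 and Mrpl22 encode proteins that line the exit tunnel for the new peptide, Mrpl24 encodes one at its mouth, and Mrpl18 a protein of the central protuberance. Their closest summits lay 1687 bases (Mrpl4), 1303 bases (Mrpl18), 1705 bases (Mrpl22) and 1495 bases (Mrpl24) from an end. For Mrpl22, Mrpl24 and Mrpl18 the listed start lies inside the annotated span, and measured from it a summit lay 84 bases downstream, 82 bases downstream and 164 bases upstream. For Mrpl4 the summit, at position 21002939 of chromosome 9, lies inside the gene (21001252 to 21008839). On the near side of the 1 kb line the closest genes were Mrps31, at 936 bases, and Mrpl23, at 935 bases.

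The windows of Mrpl18 (chr17:12916042-12916341, minus strand), Mrpl22 (chr11:58171414-58171713, plus strand) and Mrpl24 (chr3:87919294-87919593, plus strand) are shown because they hold or adjoin the summits that the 1 kb rule missed.
Mrpl18: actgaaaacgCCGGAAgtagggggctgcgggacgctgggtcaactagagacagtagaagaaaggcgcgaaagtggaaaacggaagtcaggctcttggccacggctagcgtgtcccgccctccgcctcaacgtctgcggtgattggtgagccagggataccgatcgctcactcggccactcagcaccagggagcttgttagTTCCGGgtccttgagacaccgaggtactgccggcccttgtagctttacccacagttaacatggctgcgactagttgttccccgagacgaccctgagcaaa
Mrpl22: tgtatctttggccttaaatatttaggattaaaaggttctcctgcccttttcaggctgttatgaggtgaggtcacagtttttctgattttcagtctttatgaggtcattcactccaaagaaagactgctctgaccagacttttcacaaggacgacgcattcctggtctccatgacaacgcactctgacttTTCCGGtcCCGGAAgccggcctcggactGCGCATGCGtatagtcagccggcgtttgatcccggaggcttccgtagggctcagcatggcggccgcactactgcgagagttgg
Mrpl24: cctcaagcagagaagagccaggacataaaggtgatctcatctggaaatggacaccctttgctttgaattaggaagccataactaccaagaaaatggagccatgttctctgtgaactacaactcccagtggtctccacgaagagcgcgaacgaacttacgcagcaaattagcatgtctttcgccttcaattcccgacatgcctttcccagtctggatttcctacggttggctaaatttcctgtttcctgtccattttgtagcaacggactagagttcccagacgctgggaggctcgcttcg
The Mrpl18 summit is at base 87, between ETS matches at bases 11 to 16 and 201 to 206. In Mrpl22, ETS matches at bases 190 to 195 and 198 to 203 and an NRF1 match at bases 218 to 226 lie upstream of the start, and the summit lies just past the window. The Mrpl24 window holds no match to these motifs, and its summit also lies just past the window.

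Among large subunit genes the closest summits were those of Mrpl15 and Mrpl21, at 4 bases from an end, Mrpl37 at 7 bases, Mrpl58 at 9 bases, Mrpl12 at 11 bases, Mrpl46 at 14 bases and Mrpl27 and Mrpl39 at 17 bases. Mrpl58 encodes a peptidyl-tRNA hydrolase built into the ribosome that can free stalled chains, and its 9-base summit is at the end of the gene, with another 75 bases inside its start. Mrpl12 encodes the stalk protein that recruits translation factors, and Mrpl10, which encodes the stalk's base, had its summit at 158 bases. Mrpl2 and Mrpl3, whose proteins sit near the peptidyl transferase centre, had summits at 65 and 24 bases, and Mrpl11, of the stalk region, at 122 bases. In all, 45 of 49 Mrpl genes (91.8%) had a summit within 1 kb, with a median distance of 83 bases.

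Among small subunit genes the closest summits were those of Mrps14, at 2 bases, Mrps16, at 8 bases, Mrps5, at 12 bases, and Mrps33, at 17 bases. Mrps12, whose protein belongs to the decoding centre, had its summit at 220 bases, and Mrps7, whose protein belongs to the head of the subunit, at 38 bases. Mrps22 had its summit 71 bases from an end, 71 bases downstream of its listed start. All 29 Mrps genes (88.1 to 100%) had a summit within 1 kb, with a median distance of 71 bases. The intervals of the shares of Mrpl and Mrps genes overlap, and their difference was not tested.

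Symbols do not always give the subunit or the role. Mrps18a and Mrps30 encode proteins found in the large subunit, and their summits lay at 77 and 147 bases. The paralogues of Mrps18a are Mrps18b and Mrps18c, and their summits lay at 33 and 85 bases, so that the 3 copies of the family each had one. Mrps36 encodes a protein now known as part of the 2-oxoglutarate dehydrogenase complex, and its summit lay at 338 bases, among the furthest of the Mrps genes.

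Few of these genes had a summit at the end of transcription. Of the 69 genes with a strand, 66 (95.7%) had a summit within 1 kb of the start end of the span and 8 (11.6%) within 1 kb of the other end, against 51.5% and 6.2% of all protein-coding genes with a strand. The 8 genes had a summit at both ends. Mrpl34 and Mrpl53 are among them and are so short, at 828 and 825 bases, that 1 summit was counted at both ends, and Mrpl43, of 1429 bases, had 2 summits within 1 kb. The others were Mrpl2, Mrpl36, Mrpl58, Mrps18a and Mrps18b, 5 of 65 genes over 2 kb (7.69%), where the share over all such protein-coding genes was 4.06%. The family's genes had a median length of 7690.5 bases, against 17146 bases over all protein-coding genes. The part of gene length in these shares was not tested. For Mrpl36 the summit counted at the other end, 985 bases from it, lies 184 bases downstream of the only listed start, so that only Mrpl2, Mrpl58, Mrps18a and Mrps18b had one at the other end that was over 1 kb from their own listed starts.

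Most of the family had 1 or 2 summits. Of the 78 genes, 29 (37.2%) had a single summit within 10 kb, 40 had 2 to 4 and 9 had 5 or more, with a median of 2 per gene against 1 over all protein-coding genes. Over all protein-coding genes, 33.4% had none and 22.5% had 1. Of these genes, 18.3% had 2, 11.5% had 3, 6.4% had 4 and 3.74% had 5, against 33.3%, 12.8%, 5.13% and 3.85% of the family. A further 1.98% had 6 and 1.05% had 7, against 5.13% and 2.56% of the family. No gene of the family had more than 7, where the highest number over all protein-coding genes was 18. Mrpl58 and Mrps23 had most, with 7 each. Mrpl14, Mrpl45, Mrpl49 and Mrps34 had 6, Mrpl2, Mrpl43 and Mrps18b had 5, and Mrpl53, Mrpl54, Mrps7 and Mrps17 had 4. Within 1 kb, 59 genes had 1 summit, 10 had 2 and 5 had 3, and the median was 1 both in the family and over all protein-coding genes.

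**Figure D2:**
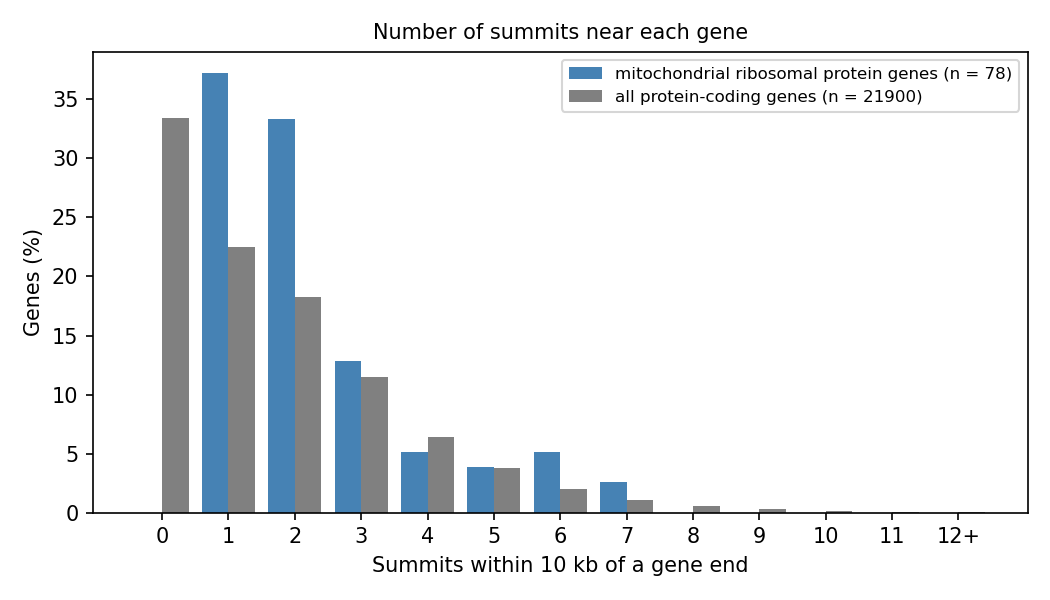
Percentage of genes by the number of summits within 10 kb of an end, for the 78 mitochondrial ribosomal protein genes and all 21900 protein-coding genes. No gene of the family stands at 0, and most stand at 1 or 2.

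Summits away from gene ends were listed for a minority of the family. Counting only summits over 1 kb from every protein-coding gene end, 26 of 78 genes (33.3%, 23.1 to 44.9%) had one within 10 kb, where the share over all protein-coding genes was 35.6%. Mrps23 had most of these, with 6, followed by Mrpl45 with 5 and Mrpl14 with 3. Some of these summits lie at a start inside the annotated span. Mrpl22, its only one, Mrpl24 and Mrps2 have 1 each at 84, 82 and 32 bases from their listed starts, and Mrps23 has 2, at 51 and 628 bases from a listed start that is 10282 bases inside the span. With summits within 1 kb of any listed start of a protein-coding gene also left out, an alternative chosen after seeing the data, 19 of 78 genes (24.4%, 15.3 to 35.4%) had one, where the share over all protein-coding genes was 31.3%.

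Many of the summits were shared with a neighbouring gene. For 38 of the 74 genes with a summit within 1 kb (51.4%), the closest summit was also within 1 kb of an end of another protein-coding gene, against 25.0% over protein-coding genes with a summit within 1 kb. Mrpl46 and Mrps11 share 1 summit and are each counted, so these 38 genes have 37 such summits. The family's genes also lie closer to their neighbours: 44 of 78 (56.4%) had an end within 1 kb of another gene's end, against 24.8% of all protein-coding genes. In 28 of the 38 cases the start end of the family's gene lay beside the start end of its neighbour, on opposite strands in 27, and in 4 it lay beside the neighbour's end. For the remaining 6 the strand of a gene was not listed. These counts use the ends of the annotated spans, and in 25 of the 28 cases both genes also have a listed start within 1 kb of the end. The exceptions are Mrpl36 and Mrps2, whose own listed starts lie 2506 and 2115 bases away, and Mrpl34, whose neighbour Abhd8 has its listed start 1050 bases away. Among the 4 genes beside a neighbour's end, Mrps23 has its only listed start 10282 bases from the end of its span. The summit lay between the 2 start ends in 17 of the 28 cases and to one side of both in 11, and in 11 of the 28 the 2 genes overlap. A summit within 1 kb of both ends cannot be given to either gene.

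Several of these neighbours also serve mitochondria or ribosomes, as chosen after the values were seen. The spans of Mrpl36 and Ndufs6 end 21 bases apart and those of Mrpl47 and Ndufb5 302 bases apart, and both neighbours are genes of complex I of the respiratory chain. The summit nearest the listed start of Mrpl36 is another one, 184 bases downstream of it. Mrps12 lies beside Sars2, the mitochondrial seryl-tRNA synthetase gene, with 136 bases between them, and their summit, which is not between them, was 220 bases from Mrps12 and 84 bases from Sars2. Mrpl43 overlaps Twnk, the gene of the mitochondrial DNA helicase, and their start ends are 779 bases apart within the overlap. The summit closest to Mrpl43 was 18 bases from it and 761 bases from Twnk. The summit closest to Twnk is another one, 173 bases from an end of Twnk and 134 bases upstream of its listed start. Mrpl49 lies beside Fau, which encodes a protein of the cytosolic small subunit, with 192 bases between them.

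The smallest distances between the ends were those of Mrpl54 with Apba3 (9 bases), Mrpl21 with Ighmbp2 and Mrpl53 with Ccdc142 (13 bases each), Mrps6 with Slc5a3 (14 bases), Mrpl2 with Klc4 (17 bases) and Mrpl36 with Ndufs6 (21 bases). Their shared summits lay 165, 4, 26, 272, 65 and 124 bases from the family's gene in that order. Mrpl21, Mrpl53, Mrps6 and Mrpl2 overlap these neighbours, and Mrpl54 and Mrpl36 do not. In none of the 6 did the summit lie between the ends. Slc5a3 starts on the same strand as Mrps6, the 1 such case among starts beside starts.

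In 1 pair, counted above as a case for each gene, both neighbours belong to the family. Mrpl46 (chromosome 7, 78775341 to 78783089) and Mrps11 (78783131 to 78792988) are transcribed away from each other from starts 42 bases apart, and the single summit of both, at 78783103, lies between these starts, 14 bases from Mrpl46 and 28 bases from Mrps11. The Mrps11 window (chr7:78782881-78783180, plus strand), chosen after its values were seen, covers both starts and the summit.
Mrps11: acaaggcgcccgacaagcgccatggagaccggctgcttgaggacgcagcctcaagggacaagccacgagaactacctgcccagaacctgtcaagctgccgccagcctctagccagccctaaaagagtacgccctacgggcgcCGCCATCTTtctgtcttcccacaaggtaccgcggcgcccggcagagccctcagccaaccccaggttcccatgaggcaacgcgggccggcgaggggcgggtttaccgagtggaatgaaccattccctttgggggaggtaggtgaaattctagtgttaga
The start of Mrpl46 is at base 209, the summit at base 223 and the start of Mrps11 at base 251, with a YY1 match at bases 143 to 151.

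**Figure D3:**
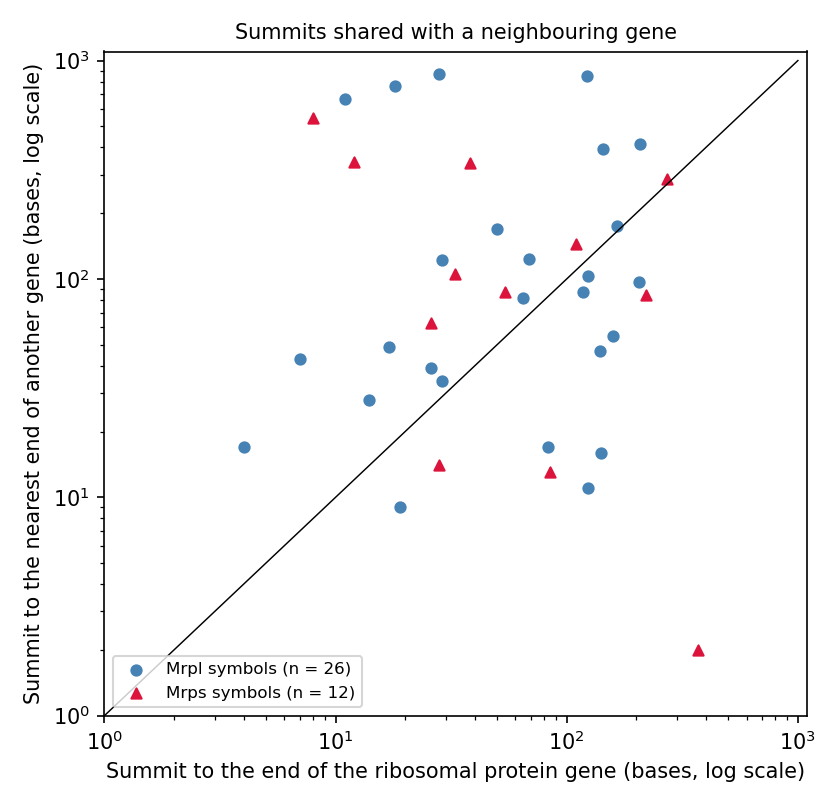
Distance of the closest summit from the end of the mitochondrial ribosomal protein gene (x axis) and from the nearest end of another protein-coding gene (y axis), both in bases on log scales, for the 38 genes that share their summit. The line marks equal distances, and points lie on both sides of it.

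Sequence features of the promoter windows were counted as a description, and a match is not a site. ETS letters were found in 40 of 69 genes (58.0%, 45.5 to 69.8%), where the share was 32.2% in protein-coding genes with a summit within 1 kb of a listed start and 20.9% in all protein-coding genes with a window. NRF1 letters were found in 18 genes (26.1%, 16.3 to 38.1%), against 16.2% of genes with a summit and 9.68% of all genes. YY1 letters were found in 11 genes (15.9%, 8.24 to 26.7%), against 6.12% of genes with a summit and 3.64% of all genes. At least 1 of these motifs was present in 52 of 69 genes (75.4%), against 29.2% of all genes with a window. For genes with a summit this joint share was not counted. Each motif alone was more frequent in them than in all genes, so 29.2% is not a like-for-like background.

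GATA letters were found in 17 genes (24.6%, 15.1 to 36.5%), against 20.0% of genes with a summit and 29.5% of all genes. The GC box (GGGCGG) was found in 34 genes (49.3%, 37.0 to 61.6%), against 72.5% of genes with a summit and 49.2% of all genes. The CCAAT box (CCAAT) stood at 39.1% in the family, with 43.6% in genes with a summit and 42.3% in all genes, and the TATA box (TATAAA) at 7.25%, with 8.13% and 14.8%. The E-box (CACGTG) stood at 7.25%, with 12.2% and 8.91%, and the CRE (TGACGTCA) at 2.9%, with 3.94% and 2.54%. The median GC content of the window nearest the summit was 58.3% in the family, 62.3% in protein-coding genes with a summit and 56.7% in all protein-coding genes with a window, and the median number of CG pairs was 21, 22 and 14.

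In 44 of the 69 genes the summit itself fell inside a window. Of these, 16 (36.4%) had an ETS match within 50 bases of the summit, against 16.7% of the 4880 protein-coding windows that hold their summit. For GATA letters the counts were 2 of 44 (4.55%), against 3.4%. For NRF1 they were 5 (11.4%), against 7.68%, and for YY1 4 (9.09%), against 2.52%. Matches beyond the window were not searched, and the part of base composition in these shares was not tested.

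**Figure D4:**
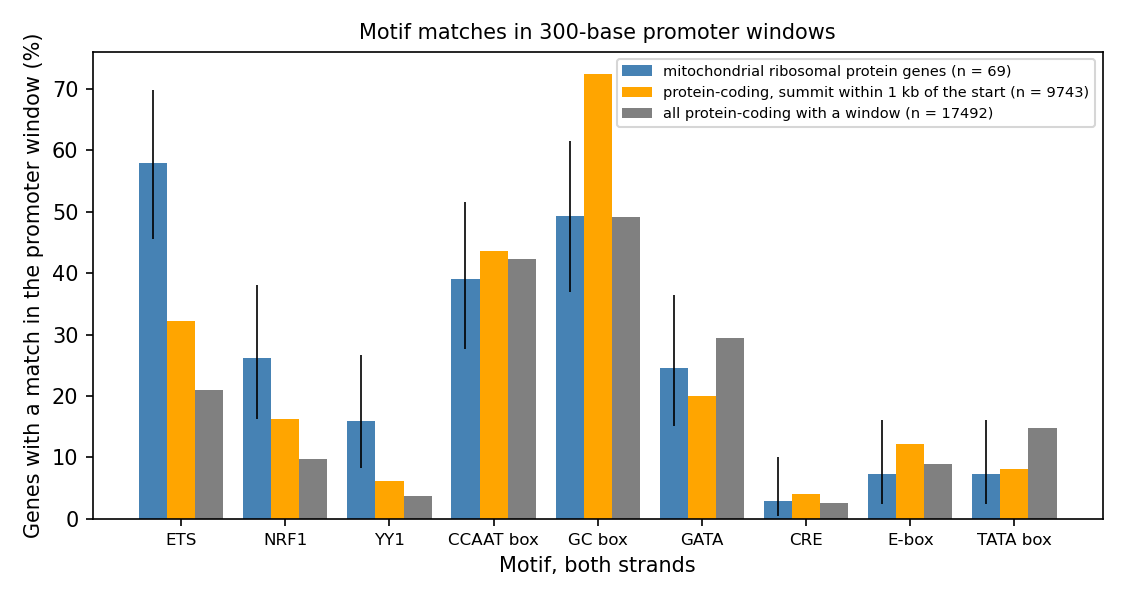
Percentage of genes with a motif match on either strand in a 300-base promoter window, for 69 mitochondrial ribosomal protein genes (bars with exact 95% binomial intervals), 9743 protein-coding genes with a summit within 1 kb of a listed start and 17492 protein-coding genes with a window. ETS, NRF1 and YY1 bars are tallest for the family, and the GC box bar is tallest for genes with a summit.

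Other large gene families stood close to this one. Within 1 kb of an end, a summit was listed for 74 of 78 mitochondrial ribosomal protein genes (94.9%), 81 of 84 cytosolic ribosomal protein genes (96.4%), 47 of 49 complex I genes with Nduf symbols (95.9%) and 29 of 30 Mediator genes (96.7%). The median distances from an end were 73.5 bases in the mitochondrial ribosomal family, and 102, 97.0 and 147 bases in the other families in that order. The closest summit was shared with another gene's end in 51.4% of the mitochondrial ribosomal genes with one within 1 kb, 21.0% of the cytosolic ribosomal genes, 53.2% of the complex I genes and 20.7% of the Mediator genes. These differences were not tested. Ndufs6 and Ndufb5, which share summits with Mrpl36 and Mrpl47, are among the complex I genes.

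**Figure D5:**
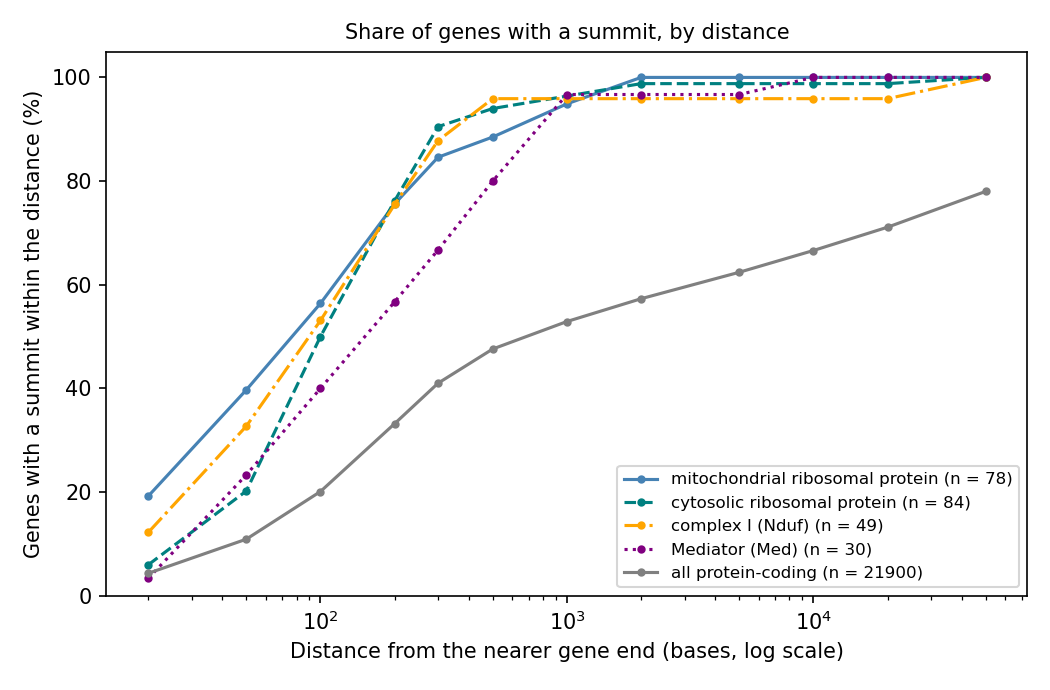
Percentage of genes with a summit within a given distance of the nearer end (bases, log scale), for mitochondrial ribosomal protein genes, 3 other families and all protein-coding genes. All families lie above all protein-coding genes at 1 kb, where the mitochondrial ribosomal family is at 94.9% and all protein-coding genes are at 52.9%.

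Other genes of mitochondrial gene expression were counted from a list of 72 matched genes. Of these, 63 (87.5%, 77.6 to 94.1%) had a summit within 1 kb of an end and 70 (97.2%) within 10 kb. Over all protein-coding genes the shares were 52.9% and 66.6%. The median distance in the list was 103 bases. Sars2 and Twnk are on the list, and their closest summits also lie within 1 kb of Mrps12 and Mrpl43. All 5 genes with other symbols whose proteins belong to this ribosome had one within 1 kb: Ptcd3 at 0 bases, Gadd45gip1 at 24 bases, Chchd1 at 36 bases, Dap3 at 280 bases and Aurkaip1 at 327 bases. The assembly factors had 21 of 21, among them the GTPase genes Mtg2 at 6 bases and Eral1 at 9 bases. The aminoacyl-tRNA synthetases and tRNA amidotransferase subunits had 18 of 20 (68.3 to 98.8%). The translation factors and related genes had 11 of 15 (44.9 to 92.2%), and the genes of mitochondrial transcription and DNA upkeep 8 of 11 (39.0 to 94.0%). The intervals of the translation factors and of the transcription genes include the 52.9% of all protein-coding genes.

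The 9 genes without a summit within 1 kb of an end were Aars2, Guf1, Mterf1a, Mterf1b, Mtif2, Mtrf1, Mtrf1l, Polg and Wars2. For Mtrf1l, Mtif2, Aars2, Polg and Wars2 a summit lay within 1 kb of a listed start, at offsets of -31, 82, 133, -295 and 320 bases, where a minus sign means upstream. Guf1, which encodes a back-translocase related to elongation factors, and Mterf1b, a gene of the mitochondrial termination factor family, had none within 10 kb, with their closest at 17561 and 87675 bases. Mterf1a and Mterf1b are near-identical copies, and no source used here says how reads matching both were handled.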

How the data were processed

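The submitters' processing notes name MACS2 2.1.1.20160309, HOMER 4.9.1 and bedtools, as well as Bowtie 1.1.2, SAMtools 1.3, Picard 2.1.0, Trim Galore 0.4.1 and cutadapt 1.9.1, with the build mm10 and without settings. The authors deposited 1 list of summit positions, counted in bases and without score, height or library. Which ChIP libraries gave the list, how they were joined, the threshold, and the treatment of reads with several matches are not given in the sources used here. All 32927 rows repeat 1 number as start and end, so the base from which positions are counted (0 or 1) is not known.

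Each summit was set against gene ends of the RefSeq table (GRCm38.p6) and against the starts of the RefSeq promoter windows. Where a gene has several listed starts, as 3 members do, the one nearest a summit was used. Distances and counts were checked on simulated positions. Motif letters were searched on both strands, each motif by itself, so that a base can belong to more than 1. Shares carry exact 95% binomial intervals. No list test was made.

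The members, gene lists and alternatives were chosen with earlier results of these data known. Genes were named by a written rule: those without a summit, the 10 with the closest and the 10 with most summits (with all ties at the last rank), those at both ends, the 6 smallest distances between an end and that of a neighbour and those beside the 1 kb line. Other named members were added for their known roles. Of the other mitochondrial genes listed, Mtrfr and Trmt61b matched no entry. The work was done in Python 3.11.15 with SciPy 1.17.1, pandas 2.3.3 and numpy 2.4.6, and plots with matplotlib 3.10.9.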

Additional observations from a re-analysis of the deposited data

How the results depend on the processing

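Of 21 alternative values on gene ends, 10 moved beyond the 95% interval of the reported share, and 18 alternatives on motifs moved in 12 cases. The 1 kb share of 94.9% became 82.1% within 250 bases, 100% within 5 kb and, in an alternative chosen after seeing the data, 100% by listed start. Over all protein-coding genes, 52.9% became 37.7%, 62.4% and 55.7% in these settings. The family's share became 59.0% with the lower end alone, 47.4% with the higher end alone and 11.6% with the end of transcription alone. Each of these drops gene ends by construction, and the shares over all protein-coding genes were 28.7%, 28.7% and 6.2%. Leaving out summits within 1 kb of an end of any annotated gene outside the family gave 47.4%, which drops shared starts by construction. No such share was counted over all protein-coding genes. The 10 kb share of 100% became 33.3% with summits over 1 kb from every protein-coding end, 24.4% with those also over 1 kb from every listed start (chosen after seeing the data) and 85.9% when each summit went to the nearest gene alone. Over all protein-coding genes, 66.6% became 35.6%, 31.3% and 58.8% in these settings. With the nearest gene alone, 11 members, among them Mrps11, whose summit went to Mrpl46, had none. The other 11 values on gene ends stayed within the interval or within 1.5 times. No member is on X, so leaving out X-linked members changed nothing by construction. With the longer ETS letters (CCGGAAGT) the share was 17.4% in the family and 5.69% in all genes, and with GATA alone 52.2% and 57.7%. No paired analysis was possible because no group has a second library and summits carry no library name. The depth is unknown, which limits what a missing summit can show.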

Other observations

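The table also lists 6 pseudogenes with Mrpl or Mrps symbols. None had a summit within 10 kb of an end, 0 of 6. A limit of 3 counts, which is rougher than the exact intervals used elsewhere, allows a share of up to 50.0%. The share over all pseudogenes was not counted, so no contrast with the family can be drawn. The closest summits of these 6 lay between 12644 bases (Mrpl23-ps1) and 1043995 bases (Mrps36-ps3) away. The RNAs of the mitochondrial ribosome are encoded by mt-Rnr1 and mt-Rnr2 on the mitochondrial genome, which held 5 summits. None of them lay inside either gene. Measured along the linear numbering, the closest was 765 bases from an end of mt-Rnr2. This genome is a circle, and distances across its origin were not measured. The summit at position 16125 can therefore lie closer to mt-Rnr1, which begins at base 70.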
